A study of Mus musculus with 17 samples.

Results

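The receptors S1pr1, S1pr4, S1pr5 and Ccr7, which steer T cells out of tissues and into lymph nodes, were followed in CD8+ T cells, the lymphocytes that kill infected or altered cells, from brain and blood of mice. These are 4 of the 48709 genes in the deposited count table, taken by gene name, and they were chosen from earlier results of the same data, in which brain and blood differed. Their brain and blood values are therefore given as a description, with no test. APP-PS1 mice (APP Swedish PS1 dE9) model the amyloid pathology of Alzheimer's disease. They carry Mo/HuAPP695swe, a mutant precursor of amyloid in chimeric mouse and human form, together with PS1-dE9, a mutated presenilin of human origin. The prion protein promoter directs both transgenes to neurons of the central nervous system. The 17 libraries comprised 4 from APP-PS1 brain (3 male, 1 female), 3 from APP-PS1 blood (2 male, 1 female), 5 from WT brain and 5 from WT blood, all 10 WT libraries being female. The series title speaks of aged and of transgenic mice, and no label gives the age behind a library. The design text counts 7 APP-PS1 and 10 WT mice, which are also the numbers of libraries per strain, and which brain and blood libraries share an animal is not labelled. The p-values measure the spread between these libraries, which may in part be technical.

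Sphingosine 1-phosphate (S1P) is a lipid that is abundant in blood and lymph and scarce inside tissues. A T cell reads this gradient through S1P receptors and leaves lymphoid organs along it, whereas CCR7 reads the chemokines CCL19 and CCL21 and brings naive and central memory T cells into lymph nodes. Transcription factors of the KLF family maintain S1pr1 in recirculating T cells, the surface protein CD69 removes S1PR1 from the membrane, and resident memory T cells of tissues are known to keep S1pr1, Klf2 and Ccr7 low.

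The libraries were shallow, and this sets how finely the receptors can be read. Totals ranged between 27646 and 214670 counts, so that 1 count was worth between 4.66 and 36.2 CPM (counts scaled to a common library total). In blood, APP-PS1 libraries held 39055 to 46336 counts and WT libraries 62604 to 214670 counts, with no overlap. Markers of T cells fitted the label: all 8 (Cd3d, Cd3e, Cd3g, Cd247, Cd2, Trac, Cd8a, Cd8b1) had counts in each group, with summed levels of 6439 to 8017 CPM in APP-PS1 brain, 5019 to 6666 CPM in APP-PS1 blood, 7492 to 9109 CPM in WT brain and 6358 to 8191 CPM in WT blood. The defining markers Cd4 and Foxp3 (CD4 T cells), Ms4a1 (B cells), Ncr1 (NK cells), P2ry12 and Tmem119 (microglia) and Cldn5 (endothelium) were at 0 counts in all 17 libraries, while other markers of the same lists had counts. The 5 B cell markers summed to 53.3 to 574 CPM in APP-PS1 brain, 146 to 302 CPM in APP-PS1 blood, 40.8 to 97.7 CPM in WT brain and 108 to 419 CPM in WT blood. The highest sum in a library of WT blood was 134 CPM for the 6 NK cell markers, 111 CPM for the 8 of microglia or macrophages and 95.8 CPM for the 6 of endothelium, and in APP-PS1 brain it was 17.8, 142 and 71.1 CPM for the same lists. Haemoglobin and the other red cell markers summed to 36.2 to 368 CPM in APP-PS1 brain and 2970.2 to 8071 CPM in APP-PS1 blood, and to 156 to 873 CPM in WT brain and 2152 to 9967 CPM in WT blood. Brain cells were freed by homogenisation and a density gradient and blood cells by red cell lysis, so tissue and preparation cannot be told apart in any brain and blood comparison.

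S1pr1 (ENSMUSG00000045092; GRCm38 chromosome 3, 115710433 to 115715072, minus strand) encodes the receptor that T cells need to exit lymph nodes and thymus. It was near the counting limit in brain of both strains and clearly counted in WT blood. The 4 APP-PS1 brain libraries had 36.2, 0, 17.8 and 7.83 CPM, and the 3 APP-PS1 blood libraries had 25.6, 86.3 and 24.3 CPM. These ranges overlapped, and the 36.2 CPM of APP-PS1 brain replicate 1 came from 1 count. The 5 WT brain libraries had 0, 29.4, 0, 0 and 10.4 CPM, and the 5 WT blood libraries had 74.5, 166, 145, 256 and 49.1 CPM. Every WT brain library lay below every WT blood library. The fitted log2 fold change of brain over blood was -1.99 (SE 1.27) in APP-PS1 mice and -3.59 (SE 0.85) in WT mice. Pooled, 3 counts in APP-PS1 brain stood against 6 in APP-PS1 blood, a ratio of 0.213 with a 95% counting interval of 0.0345 to 0.997, and 6 counts in WT brain stood against 71 in WT blood, a ratio of 0.0963 (0.0342 to 0.220). These intervals cover counting error only. Single libraries moved both values: the log2 fold change was -1.03 without APP-PS1 blood replicate 2 in APP-PS1 mice and -5.05 without WT brain replicate 2 in WT mice. In bulk RNA, fewer cells that carry a receptor and less of its RNA per cell cannot be told apart.

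S1pr4 (ENSMUSG00000044199; chromosome 10, 81497747 to 81500132, minus strand) encodes an S1P receptor found mainly on blood and lymphoid cells. It was the S1P receptor that had counts in all 17 libraries. Brain libraries held few, with 1, 6, 1 and 3 counts in APP-PS1 mice and 2, 6, 2, 5 and 3 in WT mice. APP-PS1 brain libraries had 36.2, 70.2, 17.8 and 23.5 CPM, against 76.8, 21.6 and 97.3 CPM in APP-PS1 blood, and these ranges overlapped. WT brain libraries had 27.2, 35.3, 39.1, 37.9 and 31.3 CPM, against 135, 87, 123, 63.9 and 78.6 CPM in WT blood. The highest WT brain library lay below the lowest WT blood library. The pooled ratio of brain over blood was 0.586 (95% counting interval 0.215 to 1.68) in APP-PS1 mice and 0.326 (0.181 to 0.557) in WT mice.

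S1pr5 (ENSMUSG00000045087; chromosome 9, 21242912 to 21248443, minus strand) encodes the S1P receptor known for the exit of natural killer cells from bone marrow and lymph nodes, and it is also carried by effector CD8 T cells. It was hardly counted outside WT blood. All 4 APP-PS1 brain libraries had 0 counts, which allows up to 10.1 CPM over that group, and APP-PS1 blood libraries had 0, 0 and 48.7 CPM. WT brain libraries had 0, 0, 0, 0 and 20.9 CPM, against 79.2, 134, 0, 16 and 88.4 CPM in WT blood. The WT ranges overlapped because 2 WT blood libraries lay below WT brain replicate 5. WT blood replicate 3 had no count in a library of 89692, and replicate 4 had 16 CPM from 1 count. The levels differed more among the WT blood libraries than for any other of the 4 receptors relative to the mean (63.6 ± 55.2 CPM, SD, n = 5). Pooled, 2 counts in WT brain stood against 44 in WT blood, a ratio of 0.0518 (0.00608 to 0.199). The gene overlaps the annotated gene Gm48303, and no source used here gives the strand setting of the counting. Whether reads of Gm48303 entered the S1pr5 counts was not tested.

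Promoters are shown for S1pr4 and S1pr5, the receptors with an entry in the RefSeq promoter table (GRCm38.p6). Factors of the KLF family bind CACCC boxes, and Klf2 and Klf3 had been reported in the earlier results from which the receptors were chosen. Whether KLF factors act on these promoters was not tested. Each window runs from 250 bases before to 50 bases after the annotated start on the minus strand, at chr10:81500088-81500387 for S1pr4 and chr9:21248394-21248693 for S1pr5. Capitals mark every match, on either strand, to CACCC (KLF family) or to CACCTG (bound by ZEB factors); the T-box motif TCACAC was searched too.
S1pr4: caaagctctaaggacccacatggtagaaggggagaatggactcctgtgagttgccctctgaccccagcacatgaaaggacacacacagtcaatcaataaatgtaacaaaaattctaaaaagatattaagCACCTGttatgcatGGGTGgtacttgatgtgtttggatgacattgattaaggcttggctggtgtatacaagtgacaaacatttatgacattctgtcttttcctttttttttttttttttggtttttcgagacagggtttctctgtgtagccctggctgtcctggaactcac
S1pr5: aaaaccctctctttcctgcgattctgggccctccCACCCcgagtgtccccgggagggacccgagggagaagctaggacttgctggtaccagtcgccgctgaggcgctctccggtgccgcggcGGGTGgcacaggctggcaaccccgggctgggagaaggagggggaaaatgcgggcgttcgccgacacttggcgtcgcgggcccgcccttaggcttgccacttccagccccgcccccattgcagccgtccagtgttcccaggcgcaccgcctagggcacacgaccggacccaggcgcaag
The S1pr4 window held CACCTG 121 bases before the start and GGGTG, the reverse complement of CACCC, 107 bases before it. The S1pr5 window held CACCC 216 bases and GGGTG 128 bases before the start and no CACCTG. Neither window held TCACAC on either strand. The matches did not overlap each other. Of 32851 promoter windows of this length, 57.5% held CACCC, 20.2% held CACCTG and 14.5% held TCACAC, so a CACCC match is common, and a match is a description of the sequence only. GC content was 41.0% in the S1pr4 window and 69.3% in the S1pr5 window, with a median of 52.7% over all windows.

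Ccr7 (ENSMUSG00000037944; chromosome 11, 99144196 to 99155077, minus strand), the lymph node homing receptor, had counts in all 17 libraries. It was low in brain of both strains and highest in APP-PS1 blood. APP-PS1 brain libraries had 36.2, 11.7, 35.6 and 15.7 CPM, against 640.1, 432 and 438 CPM in APP-PS1 blood. WT brain libraries had 13.6, 29.4, 19.5, 22.8 and 10.4 CPM, against 97.8, 87, 33.4, 128 and 49.1 CPM in WT blood. In both strains every brain library lay below every blood library, but in WT mice the highest brain library, at 29.4 CPM from 5 counts, and the lowest blood library, at 33.4 CPM from 3 counts, were close. The log2 fold change of brain over blood was -4.47 (SE 0.68) in APP-PS1 mice and -1.95 (SE 0.58) in WT mice.

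Counted over the 4 receptors, brain libraries lay wholly below blood libraries for 1 receptor (Ccr7) in APP-PS1 mice and for 3 (S1pr1, S1pr4, Ccr7) in WT mice. Among 4406 genes with at least 48 counts in all, the total of the least counted receptor, 3.15% were separated in this direction in APP-PS1 mice and 0.976% in WT mice. The receptors were chosen on these comparisons, so nothing is read from their share. Beside them, the 6 markers of tissue-resident memory T cells (Itgae, Itga1, Cxcr6, Zfp683, Pdcd1, Xcl1) summed to 1191 to 1581 CPM in APP-PS1 brain and 230.4 to 414 CPM in APP-PS1 blood, and to 1159 to 1859 CPM in WT brain and 308 to 609 CPM in WT blood. Most of the brain sums was Cxcr6 and Xcl1, with means of 852 and 303 CPM in APP-PS1 brain and 761 and 420 CPM in WT brain. Zfp683 had only 5 and 7 counts in these groups. The 5 markers of naive and central memory T cells summed to 398 to 711 CPM in APP-PS1 brain and 1357 to 1986 CPM in APP-PS1 blood, and to 422 to 919 CPM in WT brain and 422 to 1884 CPM in WT blood. Igfbp4 of the naive markers had 0 counts in brain of both strains, but only 2 counts in APP-PS1 blood and 3 in WT blood. Itgae and Pdcd1 of the resident markers had 0 counts in APP-PS1 blood, beside 2 and 23 counts in WT blood and 11 and 34 in APP-PS1 brain. The part of these populations in the receptor levels was not tested.

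**Figure D1:**
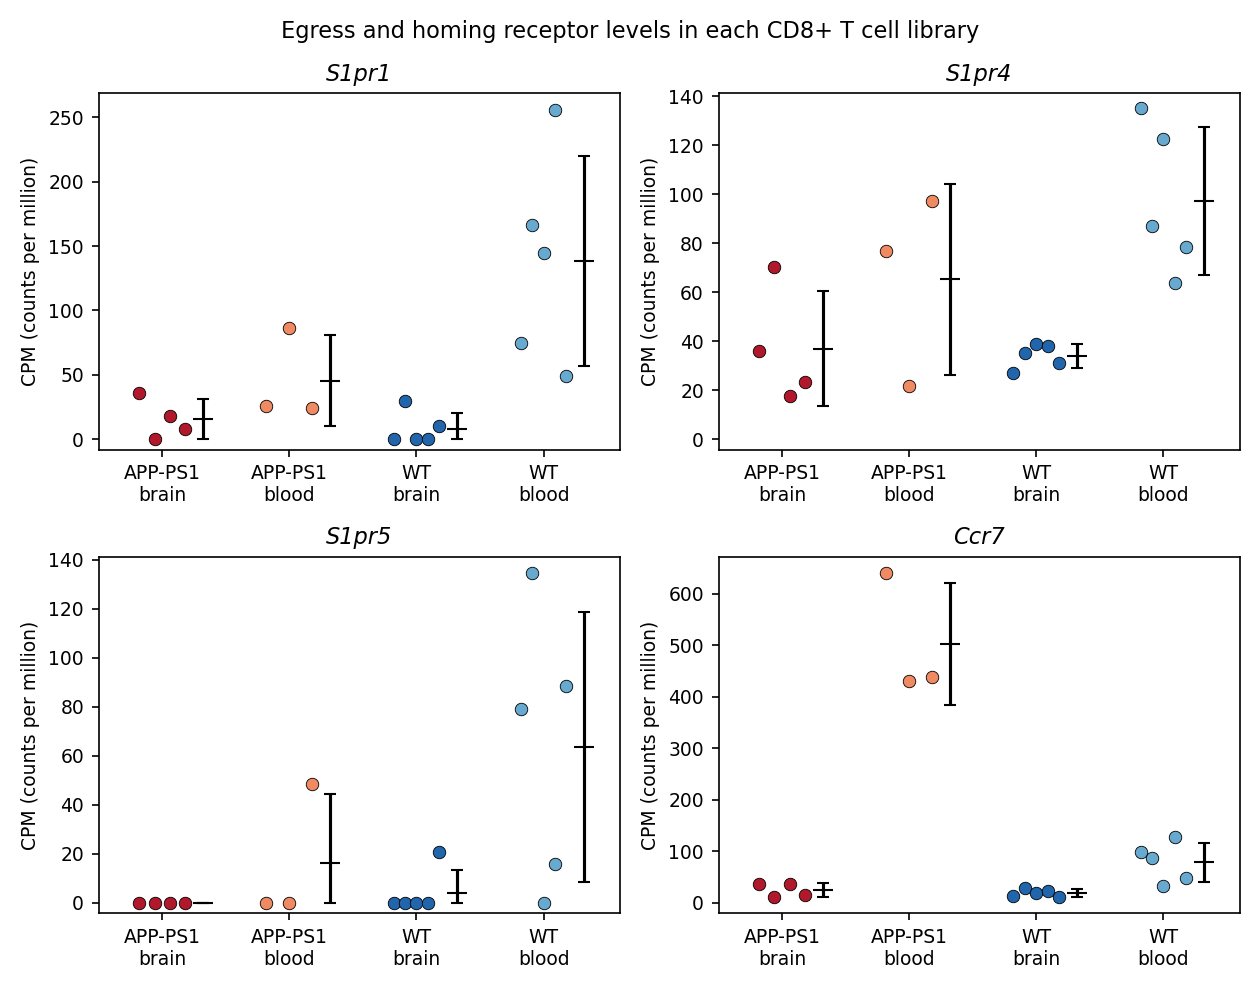
Level of S1pr1, S1pr4, S1pr5 and Ccr7 in CPM in each library (points) by group, with the group mean and SD (bars to the right of the points, lower ends cut at 0); each panel has its own linear axis. Ccr7 in the 3 APP-PS1 blood libraries stood at 432 to 640.1 CPM, above all other libraries, whereas S1pr1, S1pr4 and S1pr5 had their highest group means in WT blood.

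The comparison of strains within blood asked whether circulating CD8+ T cells of APP-PS1 mice carried other receptor levels than those of WT mice. Ccr7 was higher in APP-PS1 blood, at 503 ± 119 CPM (SD, n = 3), than in WT blood, at 79.0 ± 38 CPM (SD, n = 5), and the groups did not overlap. The log2 fold change was 2.54 (SE 0.51, adjusted p = 0.0169, from the quasi-likelihood test of edgeR after Benjamini-Hochberg adjustment over 2366 genes). Ccr7 was the 1 gene called, which is 0.0423% of the genes tested, and DESeq2 also called 1 gene. Pooled counts of 63 and 48 gave a ratio of 6.18 with a counting interval of 4.18 to 9.19. The 3 APP-PS1 blood libraries had also entered the brain and blood values from which the receptors were chosen, so this test is not independent of the choice. Of the 4 libraries in which Ccr7 reached the expression filter of 117 CPM, 3 were those of APP-PS1 blood. Ccr7 thus entered the test through the group where it was high. Ccr7 was the 1 receptor of 4 with every APP-PS1 blood library above every WT blood library, a pattern that 2.59% of the 4406 genes with at least 48 counts showed.

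The Ccr7 call in blood rested on few libraries and coincided in part with sex and depth. The log2 fold change stayed between 2.26 and 2.74 under all 25 alternatives, while the adjusted p ranged between 0.00041 and 0.637. The call ended without APP-PS1 blood replicate 1 (adjusted p = 0.268 by edgeR), 2 (0.119) or 3 (0.138), without WT blood replicate 1 (0.0601), 2 (0.0540), 3 (0.101) or 5 (0.0711), and with sex as a term (0.539). With female libraries only, 1 APP-PS1 blood library at 438 CPM stood against 5 WT blood libraries at 33.4 to 128 CPM, with a log2 fold change of 2.31 (adjusted p = 0.637). Keeping every gene with a count gave 2.26 (adjusted p = 0.100), and keeping genes at 5 CPM or more in 3 libraries gave 2.27 (adjusted p = 0.0641), neither called.

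**Figure D2:**
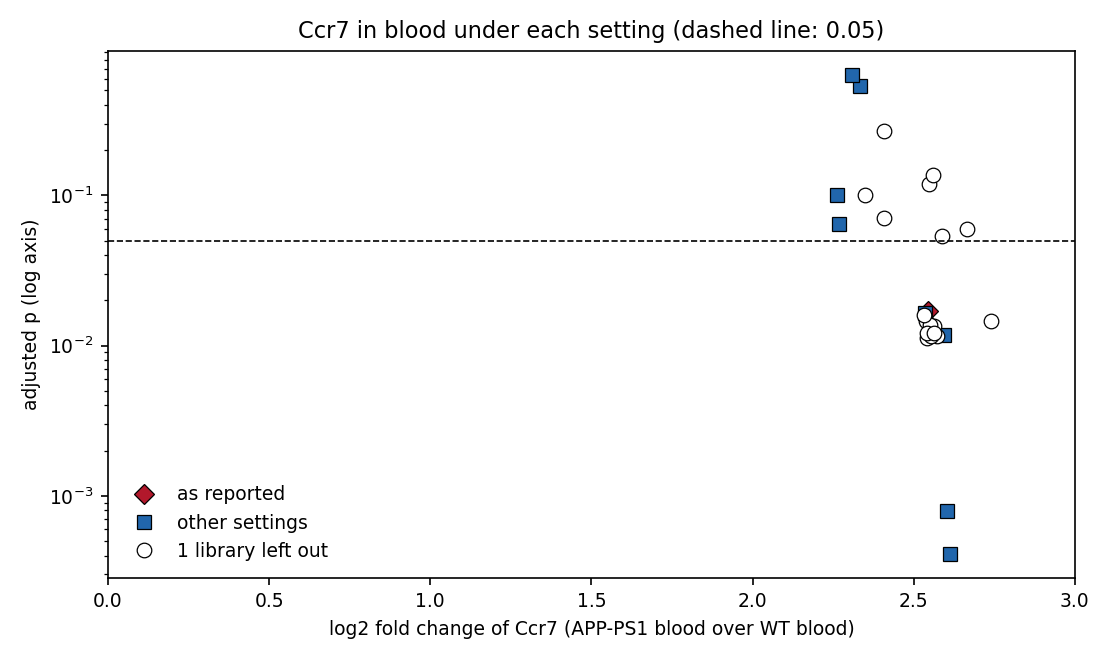
Adjusted p (vertical, log axis) against the log2 fold change of Ccr7 in APP-PS1 blood over WT blood (horizontal) as reported (diamond), under other settings (squares) and with 1 library left out (circles); the dashed line is 0.05. The fold change stayed between 2.26 and 2.74 while the adjusted p lay on both sides of the line.

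None of the S1P receptors was called between the strains in blood. S1pr1 averaged 45.4 ± 35.4 CPM in APP-PS1 blood (SD, n = 3) and 138 ± 81.5 CPM in WT blood (SD, n = 5), with overlapping libraries, and its log2 fold change was -1.58 (SE 0.97, adjusted p = 0.715, edgeR). S1pr4 averaged 65.2 ± 39.2 CPM in APP-PS1 blood and 97.4 ± 30.2 CPM in WT blood, and S1pr5 averaged 16.2 ± 28.1 CPM in APP-PS1 blood and 63.6 ± 55.2 CPM in WT blood (SD, n = 3 and 5). Neither passed the expression filter; their CPM values were compared by an exact two-sided permutation test, with p = 0.286 for S1pr4 and p = 0.25 for S1pr5, where 3 against 5 libraries cannot go below 0.0357. Over the 2 tissues 4 such tests were made. The WT blood libraries had also entered the values from which the receptors were chosen, so the S1P receptor tests in blood are not independent of the choice. S1pr1 entered its test through 3 WT blood libraries, the group where it was high. The 3 S1P receptors had lower means in APP-PS1 blood than in WT blood, and none of these differences passed its test. Single libraries moved their sizes: the S1pr1 log2 fold change was -2.55 without APP-PS1 blood replicate 2 and -2.53 with female libraries only. The S1pr4 difference of -32.2 CPM was -10.4 CPM without APP-PS1 blood replicate 2 and -48.2 CPM without replicate 3 of that group, and the S1pr5 difference of -47.4 CPM was -29.7 CPM without WT blood replicate 2.

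The make-up of the receptor counts describes the same libraries by proportion, so that the total of a library drops out. Ccr7 took 86.2%, 80.0% and 72.0% of the counts of the 4 receptors in APP-PS1 blood, against 25.3%, 18.3%, 11.1%, 27.6% and 18.5% in WT blood. In brain the share was 33.3%, 14.3%, 50% and 33.3% in APP-PS1 mice and 33.3%, 31.3%, 33.3%, 37.5% and 14.3% in WT mice. Brain shares rest on 3 to 7 counts per APP-PS1 library and 3 to 16 per WT library, so they are coarse. S1pr4 supplied 55.0% of the pooled receptor counts in APP-PS1 brain and 48.6% in WT brain, but 10.1% in APP-PS1 blood and 27.9% in WT blood.

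**Figure D3:**
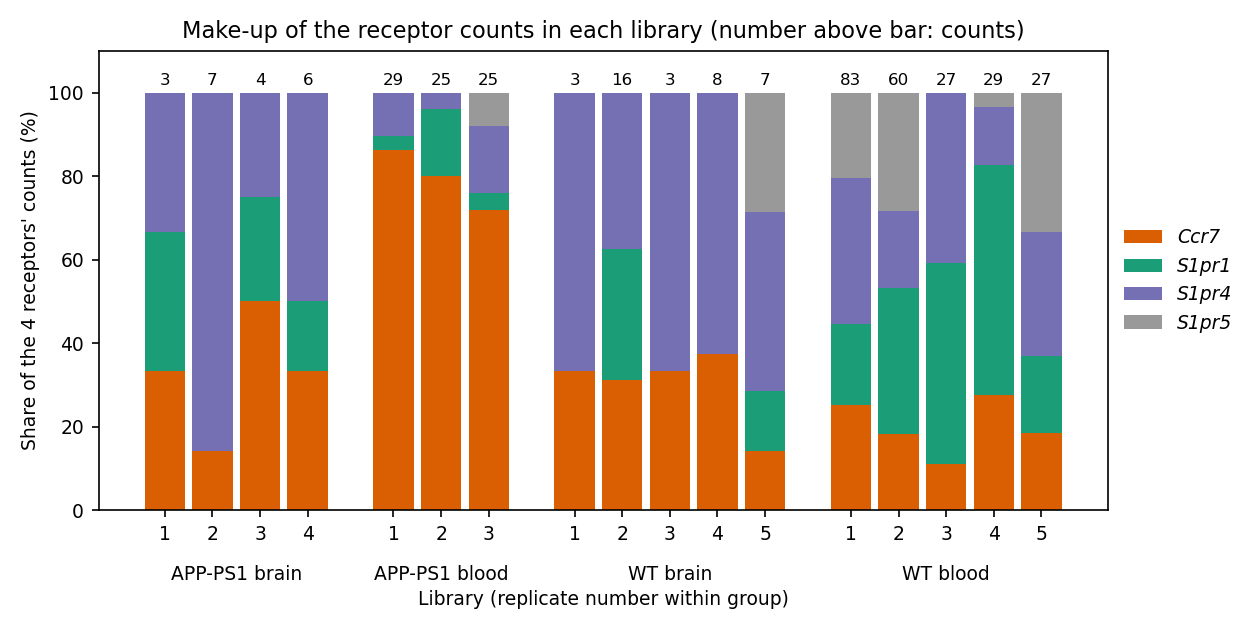
Share of the summed counts of the 4 receptors (vertical, %) taken by each receptor in each library (bars, by replicate number within group), with the summed count above the bar. Ccr7 takes 72.0% to 86.2% in APP-PS1 blood and 11.1% to 27.6% in WT blood.

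Levels of other T cell markers in the same blood libraries are given beside Ccr7. The 5 naive and central memory markers (Lef1, Tcf7, Il7r, Dapl1, Igfbp4) summed to 1357 to 1986 CPM in APP-PS1 blood and 422 to 1884 CPM in WT blood; all 4 tested had positive log2 fold changes, with a median of 0.50, and none was called. The 8 effector memory markers summed to 29958 to 33149 CPM in APP-PS1 blood and 41898 to 63586 CPM in WT blood, without overlap. Most of that sum was the chemokine Ccl5, at 26041 ± 1925 CPM in APP-PS1 blood and 43113 ± 8209 CPM in WT blood (SD, n = 3 and 5), whereas the libraries overlapped for the granzymes Gzma, Gzmb and Gzmk. The 7 tested all lay below 0 on the log2 fold change scale (median -0.92), and none was called. Over all 2366 genes the median was -0.05. B cells can also carry Ccr7, and the means of their markers lay in opposite directions; only Igkc of them passed the expression filter, and it was not called. The light chain gene Igkc averaged 15.3 CPM in APP-PS1 blood and 206 CPM in WT blood, while Ighm averaged 116 and 38.9 CPM, Cd79a 32.9 and 14.3 CPM and Cd79b 45.0 and 34.9 CPM in the same order, with overlapping libraries for these 3. The part of these cell populations, of sex or of depth in the Ccr7 difference was not tested.

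Within brain, the strains were compared to ask whether amyloid pathology goes with other receptor levels on brain CD8+ T cells. None of the 4 receptors differed beyond the spread between libraries, and for each of them the libraries overlapped. The receptors were chosen on values that include these brain libraries, where they were low. S1pr1 and Ccr7 reached the expression filter in blood libraries only, so they entered the brain comparison through blood. Ccr7 averaged 24.8 ± 12.9 CPM in APP-PS1 brain (SD, n = 4) and 19.2 ± 7.51 CPM in WT brain (SD, n = 5), and its log2 fold change was 0.02 (SE 1.02, adjusted p = 0.999, edgeR). S1pr1 averaged 15.4 ± 15.6 CPM in APP-PS1 brain and 7.97 ± 12.8 CPM in WT brain (SD, n = 4 and 5), at 3 counts and 6 counts, a pooled ratio of 0.879 with a counting interval of 0.142 to 4.12 (adjusted p = 1.00, edgeR). The pooled ratio lay below 1 although the mean was higher in APP-PS1 brain. S1pr4 averaged 36.9 ± 23.5 CPM in APP-PS1 brain and 34.2 ± 4.91 CPM in WT brain (exact two-sided permutation test, p = 0.841, where 4 against 5 libraries cannot go below 0.0159). S1pr5 averaged 0 CPM in APP-PS1 brain and 4.17 ± 9.33 CPM in WT brain (exact two-sided permutation test, p = 1). WT brain replicate 5 was the only brain library with S1pr5 counts. With all others tied at 0 this test could not give a low p, so it decides nothing for S1pr5. For Ccr7, 6 counts stood against 11, a pooled ratio of 0.959 with a counting interval of 0.291 to 2.83. The intervals are wide: a difference of several fold in S1pr1 was not detectable at this depth. In brain edgeR called 0% of the 2366 genes, 98 having an unadjusted p under 0.05, and DESeq2 called 0 with 108 such genes.

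The difference of brain against blood between the strains was tested directly. For Ccr7 the APP-PS1 log2 fold change was lower than that of WT by 2.53 (estimate -2.53, SE 0.96), which did not pass over all genes (adjusted p = 0.862, edgeR). For S1pr1 the estimate was 1.60 (SE 1.71, adjusted p = 0.999), and it was 3.09 without WT brain replicate 2 and 2.59 without APP-PS1 blood replicate 2, neither called. These contrasts hold the same libraries as the choice of the receptors. Of all genes, 0.0423% were called, namely the immunoglobulin light chain gene Igkc alone, named after its value was seen, and DESeq2 called 0 with 128 genes at an unadjusted p under 0.05.

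The levels were divided by exon length to set the receptors beside each other. This takes reads to cover whole transcripts, which was not tested. In APP-PS1 brain S1pr4 had 15.5 ± 9.85 CPM per kb, Ccr7 12.5 ± 6.53, S1pr1 5.07 ± 5.13 and S1pr5 0 CPM per kb (SD, n = 4). In APP-PS1 blood Ccr7 had 254 ± 60.0 CPM per kb, S1pr4 27.3 ± 16.4, S1pr1 14.9 ± 11.6 and S1pr5 6.49 ± 11.2 CPM per kb (SD, n = 3). By mean, the order was led by S1pr4 in brain of APP-PS1 mice and by Ccr7 in blood. In that brain group S1pr4 and Ccr7 rested on 11 and 6 counts and differed by less than their SD. In WT brain S1pr4 had 14.3 ± 2.06 CPM per kb, Ccr7 9.68 ± 3.80, S1pr1 2.62 ± 4.21 and S1pr5 1.67 ± 3.73 CPM per kb (SD, n = 5). In WT blood S1pr1 had 45.3 ± 26.8 CPM per kb, S1pr4 40.8 ± 12.6, Ccr7 39.96 ± 19.2 and S1pr5 25.4 ± 22.1 CPM per kb (SD, n = 5), and these neighbours differed by less than their SD. By group, the means of S1pr1 and S1pr4 in CPM ran in the order WT blood, APP-PS1 blood, APP-PS1 brain, WT brain, with overlapping ranges between all neighbours. For S1pr5 the 2 brain groups changed places at the low end. For Ccr7 the order was APP-PS1 blood, WT blood, APP-PS1 brain, WT brain; APP-PS1 blood alone was separated from its neighbour.

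Among 26 transcriptional regulators known to act on these receptors or on T cell quiescence and residency, 13 passed the expression filter. In brain against blood, 3 were called lower and none higher in APP-PS1 mice, and 2 lower and none higher in WT mice. Of all 2366 genes, 8 were called lower and 5 higher in APP-PS1 mice (0.549%), and 13 lower and 5 higher in WT mice (0.761%). Called or not, 8 of the 13 regulators were negative and 5 positive in APP-PS1 mice, and 11 negative and 2 positive in WT mice. Klf2, which drives S1pr1 transcription in T cells, averaged 219 ± 202 CPM in APP-PS1 brain and 1354 ± 279 CPM in APP-PS1 blood, and 142 ± 34.0 CPM in WT brain and 772 ± 269 CPM in WT blood. Its log2 fold change was -2.88 (SE 0.40, adjusted p = 2.04e-06, edgeR) in APP-PS1 mice and -2.46 (SE 0.33, adjusted p = 1.29e-06) in WT mice. Klf3, a related repressor, changed by -3.91 (adjusted p = 9.66e-08, edgeR) in APP-PS1 mice, at 42.8 ± 22.0 CPM in brain and 741 ± 183 CPM in blood, and by -2.41 (adjusted p = 1.27e-05) in WT mice, at 85.8 ± 30.3 CPM in brain and 444 ± 190 CPM in blood. Lef1, a factor of naive and memory T cells, averaged 124 ± 78.6 CPM in APP-PS1 brain and 519.9 ± 92.5 CPM in APP-PS1 blood (log2 fold change -2.13, adjusted p = 0.00969, edgeR), and 128 ± 47.9 CPM in WT brain and 260.3 ± 79.8 CPM in WT blood (-1.14, adjusted p = 0.194). Id2, an effector factor and the most abundant of the list, had log2 fold changes of 0.96 (adjusted p = 0.0975) and 0.18 (adjusted p = 0.925). The list's median was -0.39 in APP-PS1 mice and -0.45 in WT mice, beside 0.03 and 0.02 over all genes. Klf2 and Klf3 had been reported in the earlier results from which the receptors were chosen, so they are no independent evidence. None of the 13 was called between the strains in brain or blood; Klf2 in APP-PS1 blood over WT blood stood at 0.73 (adjusted p = 0.557, edgeR), and 5 of the 13 had an unadjusted p under 0.05 there, beside 190 of all 2366 genes.

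No gene reported from the lists of other receptors, signalling, receptor internalisation and ligands was called in any of the 5 comparisons. Of 13 other S1P and homing receptors, 8 were tested, with medians of -0.05 in APP-PS1 mice and 0.06 in WT mice for brain over blood. Selplg, the selectin ligand PSGL-1, had -0.79 in APP-PS1 mice and -0.37 in WT mice, and the integrin chains Itgb1, Itga4 and Itgb2, which mediate adhesion, had 1.33, -0.01 and 0.26 in APP-PS1 mice and 0.69, 0.05 and 0.48 in WT mice. S1pr2, an S1P receptor that holds cells in place, had 19 counts in all, and S1pr3 had none in any library. Of 24 genes that signal below the receptors, 17 were tested, with medians of 0.00 in APP-PS1 mice and -0.08 in WT mice. The most abundant were the GTPases Rac2 (0.16 in APP-PS1 mice, -0.13 in WT mice) and Cdc42 (-0.19 and -0.26 in the same order), and the G protein subunits Gnb1 (-0.29 and -0.51) and Gnai2 (0.00 and -0.56), which couples S1PR1 and CCR7 to migration.

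Of 13 genes for receptor internalisation and desensitisation found in the table, 8 were tested. The membrane linker Msn had log2 fold changes of -0.24 in APP-PS1 mice and -0.06 in WT mice, the arrestin Arrb2 0.66 and -0.02, the receptor kinase Grk6 -0.33 and 0.19 and the endosomal GTPase Rab7 -0.79 and -0.26. Cd69, whose product withdraws S1PR1 from the surface, is named after its values were seen. It averaged 193 ± 180 CPM in APP-PS1 brain, 116 ± 103 CPM in APP-PS1 blood, 39 ± 34.3 CPM in WT brain and 81.1 ± 24 CPM in WT blood. Its log2 fold change of 2.05 (SE 0.63) in APP-PS1 brain over WT brain was the highest of the 2366 genes in that comparison and did not pass (adjusted p = 0.999, edgeR). The 21 genes of the ligands and of S1P synthesis, transport and breakdown were all below the filter. The highest were the ceramide synthases Cers2, Cers4 and Cers5 and the S1P lyase Sgpl1, with means of 39.7, 32.5, 26.3 and 28.9 CPM over the 17 libraries, and Ccl19 and Ccl21a, the ligands of CCR7, had no counts.

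**Figure D4:**
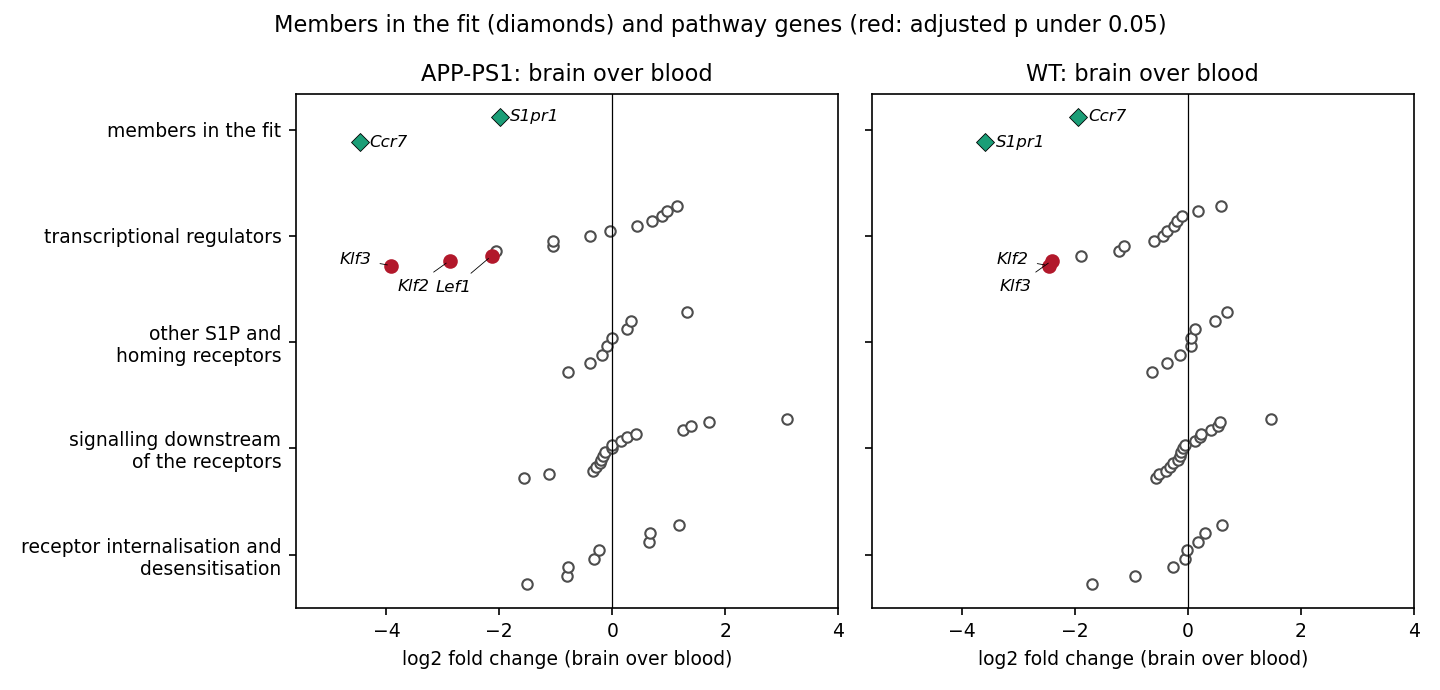
Log2 fold change of brain over blood in APP-PS1 mice (left) and WT mice (right) for the receptors that passed the filter (diamonds, description only) and for the tested genes of 4 pathway lists (circles, red where the adjusted p was under 0.05). Klf2 and Klf3 were called lower in both strains and Lef1 in APP-PS1 mice, and no other gene drawn as a circle was called. Lef1 was also lower in WT mice (-1.14) without being called.

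Across the 17 libraries, the genes whose log2 CPM most resembled that of S1pr1 were Cmah (Pearson r = 0.75), Glipr2 (0.75), Hbb-bs (0.74), Hba-a2 (0.74) and Ccl5 (0.73), of 2297 genes ranked. Klf2 (0.73) and Klf3 (0.71) ranked 7 and 8. Most resembling Ccr7 were Tmsb10 (0.85), Rpia (0.83), Prr14 (0.82), Lef1 (0.81) and Klf2 (0.81). These correlations are descriptions over points that share tissue, preparation and depth. With the group means removed, the r of the 5 genes named first for S1pr1 ranged between -0.11 (Ccl5) and 0.50 (Glipr2). For the 5 genes of Ccr7 it ranged between 0.21 (Lef1) and 0.72 (Prr14). It was not computed for Klf2 and Klf3 with S1pr1. The log2 total of the library correlated with S1pr1 at 0.07 and with Ccr7 at -0.40, and S1pr1 with Ccr7 at 0.45.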

How the data were processed

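Whole-number counts per gene and library were deposited for 17 CD8+ T cell libraries, not normalized. Per the submitters' processing notes, which give no roles, the build was GRCm38 and the tools included HTSeq 0.11.2, Bowtie2 2.2.2, DESeq2 and FastQC. The sources used here give neither the strand setting nor the annotation nor any molecular identifiers. Per the labels' protocols, cells were stained with fluorescent antibodies, and the step that isolated the CD8+ cells is not stated there. All 17 count columns were used and 0 were set aside. Groups came from the labels. Each library was counted once: chi-square per degree of freedom was 2.59 to 5.69 over the 29 pairs within groups, and 0 pairs held identical values.

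Counts were tested with edgeR 4.0.16 (R 4.3.3): TMM, filterByExpr (2366 of 13539 genes with a count kept, those at 117 CPM or more in 3 or more libraries), robust quasi-likelihood F tests, 1 mean per group over all libraries, a common biological coefficient of variation of 0.370, Benjamini-Hochberg adjustment per comparison and calls at 0.05. S1pr1 passed the filter through 3 WT blood libraries, and Ccr7 through the 3 APP-PS1 blood libraries and WT blood replicate 4. S1pr4 and S1pr5 did not pass and were compared by exact permutation tests on CPM (SciPy 1.17.1). The SE was obtained by dividing the size of the log2 fold change by the root of F. CPM use the total count of a library, and SDs are between libraries. Ratios carry exact 95% counting intervals. Coordinates are from GENCODE M21 on GRCm38. Figures were drawn with matplotlib 3.10.9. The fit was tested on simulated data.

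The receptors, gene lists and markers were chosen with earlier results of these data known. Named genes are, per list, those called and beside them the most abundant until 4 are named, and the 5 genes most correlated with each receptor in the fit (log2 CPM, prior count 2). Some genes of the lists are not reported here and are left out of list counts, marker sums and the correlation ranking, while counts over all genes include them. Alternatives were RLE size factors, DESeq2 1.42.0, no filter, a filter of 5 CPM in 3 libraries, female libraries only, sex as a term, only the 2 groups compared, leaving out mitochondrial, ribosomal and haemoglobin genes, log2(CPM + 10) or TMM-scaled CPM for S1pr4 and S1pr5, and leaving out each library.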

Additional observations from a re-analysis of the deposited data

Results flagged for a closer look

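S1pr5 in WT brain replicate 5, at 20.9 CPM from 2 counts, stood apart from the other 4 WT brain libraries, which had 0 counts. Of 11 sets of receptor values in groups of 4 or 5 libraries, this was the 1 whose most distant library lay beyond the 95% limit for a single stray value; chance places about 1 in 20 groups there, and a limit made for continuous values is passed by any count beside zeros.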

How the results depend on the processing

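For Ccr7 in APP-PS1 blood over WT blood the log2 fold change was 2.26 with no filter, 2.27 with a filter of 5 CPM, 2.33 with sex as a term and 2.31 with female libraries only, none of them called, and 2.35 to 2.74 with 1 library left out; it stayed called with RLE size factors, DESeq2, only the 2 groups compared, and without mitochondrial, ribosomal and haemoglobin genes. The number of genes called in that comparison, 1, became 5 with no filter, 7 with a filter of 5 CPM, 0 with sex as a term, 3 without mitochondrial, ribosomal and haemoglobin genes, 4 with only the 2 groups compared, 0 with female libraries only and 0 to 3 with 1 library left out (0 without APP-PS1 blood replicate 1 or 3 or WT blood replicate 1, 2, 3 or 5, and 3 without WT brain replicate 3). For the difference between strains, 1 became 0 with DESeq2 and with female libraries only, and 0 to 1 with 1 library left out (0 without APP-PS1 brain replicate 2 or APP-PS1 blood replicate 1). For APP-PS1 brain against blood, 13 became 21 with DESeq2, 8 without mitochondrial, ribosomal and haemoglobin genes, 4 with female libraries only and 8 to 22 with 1 library left out (8 without APP-PS1 blood replicate 2, 22 without APP-PS1 blood replicate 3). In APP-PS1 brain over WT brain the values near 0 changed sign: S1pr1 was -0.092 with no filter, -0.088 with a filter of 5 CPM, -0.57 with sex as a term, -0.36 with female libraries only and -0.40 to 1.51 with 1 library left out; Ccr7 was -0.064, -0.064, -0.19 and -0.32 under the same 4 settings and -0.25 to 0.31 with 1 library left out. S1pr4 there differed by -0.028 on the log2(CPM + 10) scale and by -8.36 to 9.13 CPM with 1 library left out, the negative value coming without APP-PS1 brain replicate 2. With 1 library left out, S1pr1 in brain over blood ranged from -2.42 to -1.03 in APP-PS1 mice and from -5.05 to -3.24 in WT mice. Where the cause of a change is not the smaller number of libraries or genes itself, the cause was not tested. Of the other values, those tested between the strains did not change sign or side of the threshold in 39 cases under other settings and in 110 with 1 library left out. Brain and blood values, which carry no test, kept within 1 SD or, on another scale, their sign in 37 and 94 cases, and numbers of genes called stayed within 1.5 times in 28 and 74. S1pr1 did not pass the filter, and has no value, without WT blood replicate 2, 3 or 4. With only the 2 groups compared, S1pr1 has a value in the comparison of the strains in blood alone, and Ccr7 there and in APP-PS1 brain over blood.

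Depth limits how low a level can be read: 3 counts, the limit that a count of 0 allows, are worth 23.7 CPM over APP-PS1 blood and 5.04 CPM over WT blood. The S1P receptors of APP-PS1 blood rest on 2 to 8 counts each. Sex and strain largely coincide, and tissue and preparation cannot be told apart. No paired analysis was possible because no label gives brain and blood libraries a shared number or animal.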
